A study of Homo sapiens with 4 samples.

Results

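The 8 RNAs described here are the long noncoding RNAs (lncRNAs, transcripts that are not translated) MALAT1, NEAT1, KCNQ1OT1, MEG3, NORAD, OIP5-AS1, HCP5 and PVT1. They were found by gene name among the 60612 genes of the expression tables, of which 16857 carry the deposited class lncRNA. The series holds 4 RNA libraries from cell lines of multiple myeloma, a cancer that arises in antibody-secreting plasma cells. The established lines H929 and KMS28BM each gave 1 library labelled after sorting and 1 labelled before sorting on a microfluidic chip, and the labels name neither the property sorted for nor a treatment. The series title seems to call the cells labelled after sorting the ones that did not pass the chip, so the directions given here follow the sample labels and are the opposite under the title. With 1 library per line and label there is no replicate spread within a line, and values below compare single libraries.

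Levels are FPKM, a unit that divides the fragments of a gene by its length and by the size of the library, so that genes of different length share 1 scale. Ratios are log2(FPKM + 1) after sorting minus log2(FPKM + 1) before sorting, so that a positive ratio means a higher level after sorting. A gene counts as measured in a line when it reached 1 FPKM in either library. The files give no read counts, and the depth was estimated from the smallest steps in the values at between 21.2 and 24.8 M (mega) fragments per library. Plasma cell markers were well represented: JCHAIN, the joining chain of secreted antibodies, stood at 589 FPKM after and 1142 FPKM before sorting in H929, and at 2431 FPKM after and 1422 FPKM before sorting in KMS28BM. IRF4, a regulator of plasma cell identity, stood at 55.1 FPKM after and 260 FPKM before sorting in H929, and at 53.4 FPKM after and 35.04 FPKM before sorting in KMS28BM. Of the plasma cell markers, 12 were measured in each line, 0 were 2-fold higher and 2 lower after sorting in H929 (median ratio -0.59), and 0 passed 2-fold in KMS28BM (median 0.14). Markers of other cells were low: the sums over a library lay between 0.199 and 3.41 FPKM for T and NK cells, between 0.052 and 0.370 FPKM for neutrophils, between 0.084 and 2.29 FPKM for stroma and between 1.39 and 2.56 FPKM for epithelium. Monocyte markers summed to between 2.65 and 11.7 FPKM, endothelial ones to between 0.783 and 9.65 FPKM and red cell ones to between 0.851 and 7.36 FPKM, most of it CD68, ESAM and HBD. At the floor in all 4 libraries were 4 of 9 T and NK cell markers, 2 of 7 monocyte and 2 of 5 neutrophil ones. So were 2 of 6 red cell, 3 of 7 stromal, 2 of 5 endothelial and 1 of 5 epithelial markers. CD3D, S100A8, ELANE, CDH5 and DCN were among them. The markers GZMB, GNLY, PDGFRB and KRT8 passed 1 FPKM in H929, and KRT18 did in KMS28BM. In bulk RNA, fewer cells that make an RNA and less of it per cell cannot be told apart.

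MALAT1 and NEAT1 are neighbouring genes whose RNAs stay in the nucleus, MALAT1 in nuclear speckles, where splicing factors collect, and NEAT1 as the scaffold of paraspeckles. Neither MALAT1 nor the long form of NEAT1 ends in an ordinary poly(A) tail: the enzyme RNase P, best known for trimming tRNA precursors, cuts the transcript, and the new end folds into a triple helix that protects it. NORAD and OIP5-AS1 work as binding platforms in the cytoplasm, NORAD for the Pumilio proteins, which repress the mRNAs they bind, and OIP5-AS1 for the microRNA miR-7. KCNQ1OT1 and MEG3 are made from imprinted loci, where 1 parental copy is silent, and HCP5 and PVT1 lie beside immune genes and the oncogene MYC.

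Libraries were selected on poly(A), so the 3′ ends of the 2 nuclear RNAs are shown first. The stretches that form the triple helix were read from MALAT1, a U-rich stretch TTTCTTTT, a second U-rich stretch TTTTGCTTTT and an A-rich tract AAAAAGCAAAA, and were searched in this order on each transcript's own strand with at most 80 bases between neighbours. Among 206694 annotated transcripts, those of 2 genes held this arrangement, MALAT1 itself and NEAT1. It sits near the end of the MALAT1 transcript, at bases 8264 to 8355, and at the very end of the long NEAT1 transcript, at bases 22650 to 22743 of 22743. The capitals mark the 3 stretches, written as DNA.
MALAT1: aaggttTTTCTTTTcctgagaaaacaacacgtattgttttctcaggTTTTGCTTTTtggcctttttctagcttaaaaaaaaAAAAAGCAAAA
NEAT1: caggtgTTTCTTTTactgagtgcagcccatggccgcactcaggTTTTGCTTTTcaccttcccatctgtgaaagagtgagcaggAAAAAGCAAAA
The A-rich tract is encoded in the genome, and in MALAT1 it lies just before the RNase P cut. The annotated transcript goes on past it with the stretch from which the tRNA-like small RNA mascRNA is released, shown here at bases 8356 to 8416 because it is what the cut removes.
MALAT1 beyond the tract: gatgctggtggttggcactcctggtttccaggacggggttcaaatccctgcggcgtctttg

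For 3 other measured RNAs, the last 60 bases of 1 annotated transcript each are shown with the poly(A) signal AATAAA in capitals. For NORAD and OIP5-AS1 this is the longest transcript. For HCP5 it is another one, since the longest HCP5 transcript holds no AATAAA in its last 60 bases. The annotated MALAT1 transcript, which runs on past the RNase P cut, holds the signal there too.
NORAD: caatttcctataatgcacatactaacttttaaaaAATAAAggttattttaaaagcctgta
OIP5-AS1: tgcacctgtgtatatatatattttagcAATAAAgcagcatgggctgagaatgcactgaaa
HCP5: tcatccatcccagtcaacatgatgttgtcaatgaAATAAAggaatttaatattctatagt

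The 8 RNAs ran from the floor of the assay up to 28.0 FPKM, for NORAD in the KMS28BM library labelled after sorting. NORAD had the highest FPKM in every library, above the other 7, and MEG3 was listed at the floor of 0.0001 FPKM in all 4 libraries. Since poly(A) RNA was selected and MALAT1 and the long NEAT1 lack an ordinary poly(A) tail, this order need not be that of abundance. MALAT1, NORAD, OIP5-AS1 and HCP5 were measured in both lines and NEAT1 in H929 alone. KCNQ1OT1, MEG3 and PVT1 stayed under 1 FPKM in every library. Among the 5 RNAs measured in H929, HCP5 was at least 2-fold higher and MALAT1 at least 2-fold lower in the library labelled after sorting. In H929 HCP5 reached 1 FPKM only after sorting (1.31 FPKM, 0.121 before) and NEAT1 only before sorting (1.15 FPKM, 0.415 after). Both thus passed the filter only through their higher library, which ties their entry to their direction. The background in that line was 1.59% of 11083 measured genes higher and 5.17% lower, and among its 770 lncRNA genes 1.82% higher and 7.01% lower. Among the 4 RNAs measured in KMS28BM, MALAT1 was at least 2-fold higher and none was lower, against 4.13% of 10472 measured genes higher and 1.12% lower, and 2.8% higher and 1.87% lower of 535 lncRNA genes. The median ratio of the members was -0.68 in H929 and 0.72 in KMS28BM, beside medians of -0.11 and 0.12 over all measured genes.

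**Figure D1:**
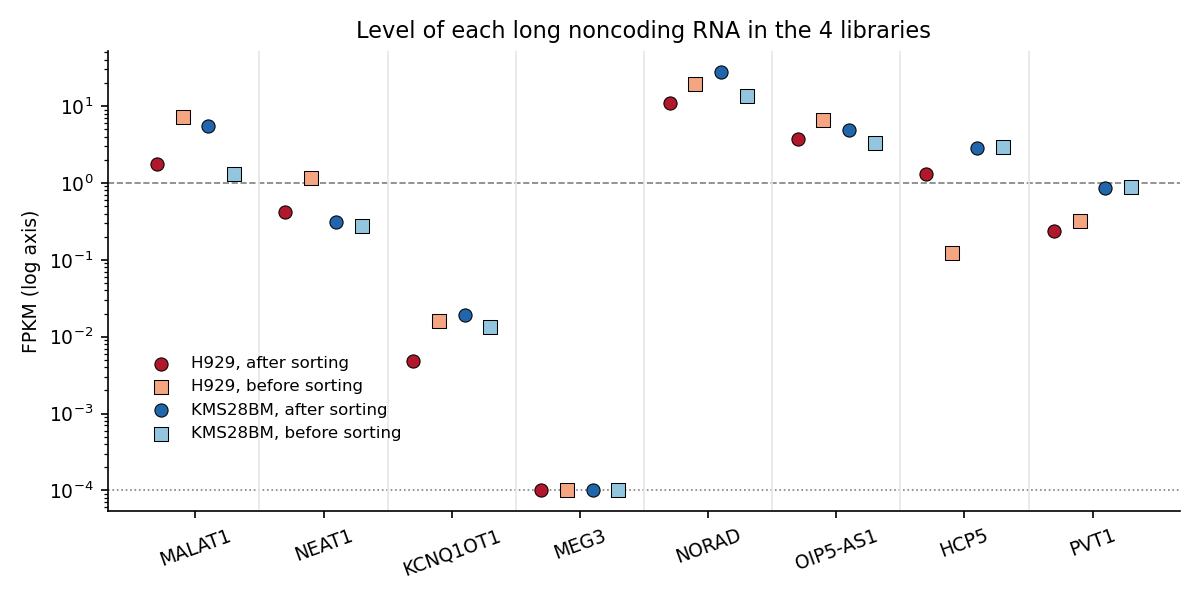
FPKM of the 8 lncRNAs on a log axis, with circles for libraries labelled after sorting and squares for those labelled before sorting, 1 point per library. The dashed line marks 1 FPKM and the dotted line the floor of 0.0001 FPKM, where all 4 points of MEG3 lie.

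MALAT1 (ENSG00000251562, chromosome 11) was the member whose ratio was furthest from 0 in both lines at a pseudocount of 1, in opposite directions. In H929 HCP5 lay further out without a pseudocount, at a pseudocount of 0.1, and once the GC and length trend was taken out. In H929 MALAT1 stood at 1.74 FPKM after and 7.16 FPKM before sorting, about 345 and 1548 fragments on its longest transcript. In KMS28BM it stood at 5.47 FPKM after and 1.302 FPKM before sorting, about 1114 and 240 fragments. The H929 library labelled before sorting and the KMS28BM library labelled after sorting are thus the high ones. Without a pseudocount the level in H929 was 4.12-fold lower after sorting (95% exact binomial interval 3.66 to 4.64, counting error only), and in KMS28BM it was 4.20-fold higher (3.66 to 4.86). On the log2 scale of FPKM plus 1, the ratios were -1.58 in H929 and 1.49 in KMS28BM. These values lie at percentile 1.17 of the lncRNA genes measured in H929 and percentile 98.3 of those measured in KMS28BM. In the authors' deposited table, with a test that the headers do not name, MALAT1 has a p of 0.0052 and a q of 0.285 in H929. The authors' deposited table for KMS28BM lists a p of 0.00541 and a q of 0.640. Among lncRNA genes that reached 5 FPKM in the line and shared under 20% of their 50-base words with another gene, MALAT1 was the second lowest of 75 in H929 and the second highest of 43 in KMS28BM. In each line MALAT1 reached 5 FPKM only in its higher library, which ties its entry to this ranking to its direction. The lowest in H929 was AC243960, at 5.56 FPKM after and 18.8 FPKM before sorting, and the highest in KMS28BM was AC005062, at 40.4 FPKM after and 9.17 FPKM before sorting.

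A reversal between the lines was common among measured genes. Of the 4 members measured in both lines, 3 had a ratio below 0 in H929 and above 0 in KMS28BM, against 41.6% of 9261 genes and 30.9% of 391 lncRNA genes measured in both. MALAT1 was the 1 member at 2-fold or more each way, a pattern that 1.10% of all genes and 0.512% of the lncRNA genes showed. The other lncRNA gene with it was AL662884 (ENSG00000273333), listed at the floor after and at 34.1 FPKM before sorting in H929, and at 27.8 FPKM after and at the floor before sorting in KMS28BM. That gene shares 91.8% of its 50-base words with other genes, so its reads may be assigned to them, whereas MALAT1 shares 4.20%. No test of the difference between the lines was possible, since each line and label has 1 library.

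**Figure D2:**
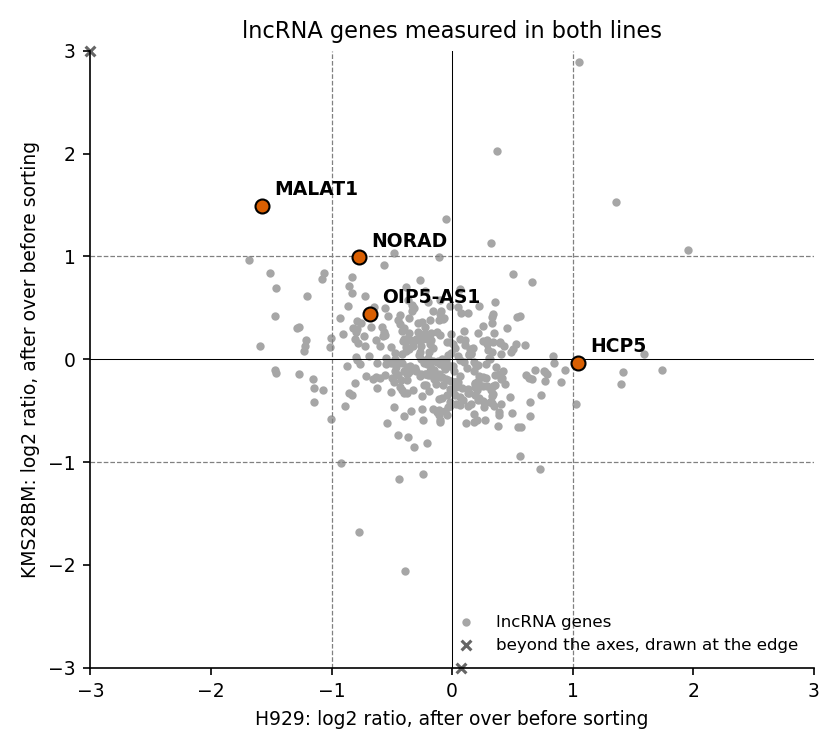
Log2 ratio of FPKM plus 1, after over before sorting, in H929 (horizontal) and KMS28BM (vertical) for the 391 lncRNA genes measured in both lines, with dashed lines at 2-fold. MALAT1 lies at -1.58 and 1.49, outside the main cloud, NORAD and OIP5-AS1 lie on the same side and HCP5 lies on the H929 axis to the right.

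GC content moved with the ratios, in opposite directions in the 2 lines. Across protein-coding genes the Spearman correlation of the ratio with transcript GC content was 0.54 over 9222 genes in H929 and -0.73 over 8890 genes in KMS28BM, and across lncRNA genes it was 0.22 over 736 genes and -0.38 over 503 genes. These are correlations across genes of the same pair of libraries, and genes are not independent replicates. MALAT1 has 40.3% GC, NORAD 41.6%, OIP5-AS1 38.4% and NEAT1 44.1%, all in the range where coding genes had negative median ratios in H929 and positive ones in KMS28BM. In a bin of 922 coding genes with a median GC of 40.4%, the median ratio was -0.50 in H929, and in a bin of 889 at 40.5% in KMS28BM it was 0.57. HCP5 has 50.7% GC, near which the medians of coding genes were -0.01 in H929 and 0.07 in KMS28BM.

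**Figure D3:**
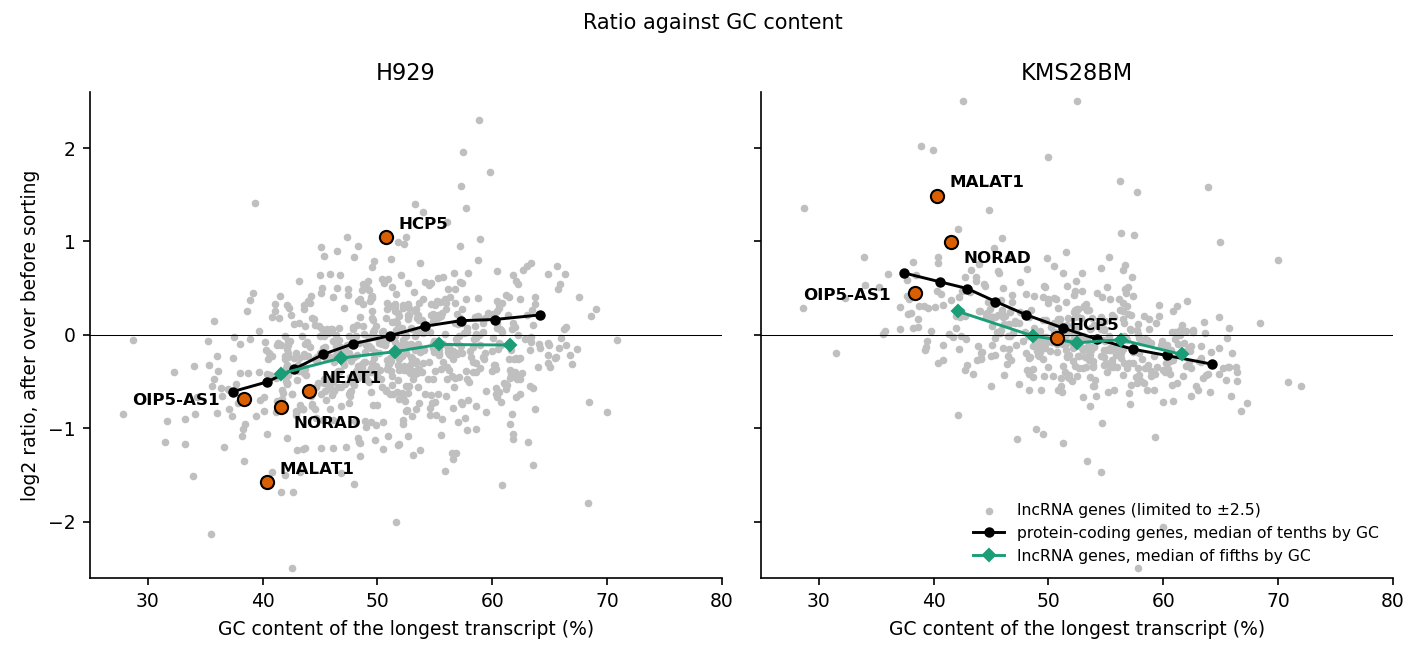
Log2 ratio, after over before sorting, against GC content of the longest transcript in H929 (left) and KMS28BM (right). Grey points are lncRNA genes, black circles the medians of 10 equal bins of protein-coding genes by GC, and green diamonds those of 5 bins of lncRNA genes. The coding medians run upward with GC in H929 and downward in KMS28BM, and MALAT1 lies beyond them in both.

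A cubic trend on GC content and transcript length (log2), fitted on coding genes, took up 29.9% of the variance of their ratios in H929 and 49.8% in KMS28BM. For a transcript like MALAT1 it gave -0.60 in H929 and 0.65 in KMS28BM. With the trend removed the MALAT1 ratio was -0.97 in H929 and 0.84 in KMS28BM, just inside 2-fold in both, and its direction was the same as before. Among lncRNA genes these values lie at percentiles 8.83 and 94.6. Among coding genes, on which the trend was fitted, they lie at percentiles 1.78 and 98.9. The median of lncRNA genes was then -0.23 in H929 and 0.06 in KMS28BM. NORAD then had ratios of -0.30 in H929 and 0.41 in KMS28BM, and OIP5-AS1 -0.00014 and -0.27, so OIP5-AS1 then had no ratio above 0 in either line. HCP5 kept a ratio of 1.02 in H929 and had -0.13 in KMS28BM. After removal, HCP5 in H929 was the 1 member at 2-fold or more in either line, against a background of 2.58% of genes higher and 2.35% lower in H929 and 1.11% higher and 1.3% lower in KMS28BM, and the members' medians were -0.23 and 0.14. The share of genes lower in H929 and higher in KMS28BM was then 29.3% of all genes and 42.2% of lncRNA genes, and MALAT1 and NORAD were the 2 such members. The 2-fold pattern each way was then shown by 0.108% of all genes, 0.535% of lncRNA genes and no member.

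**Figure D4:**
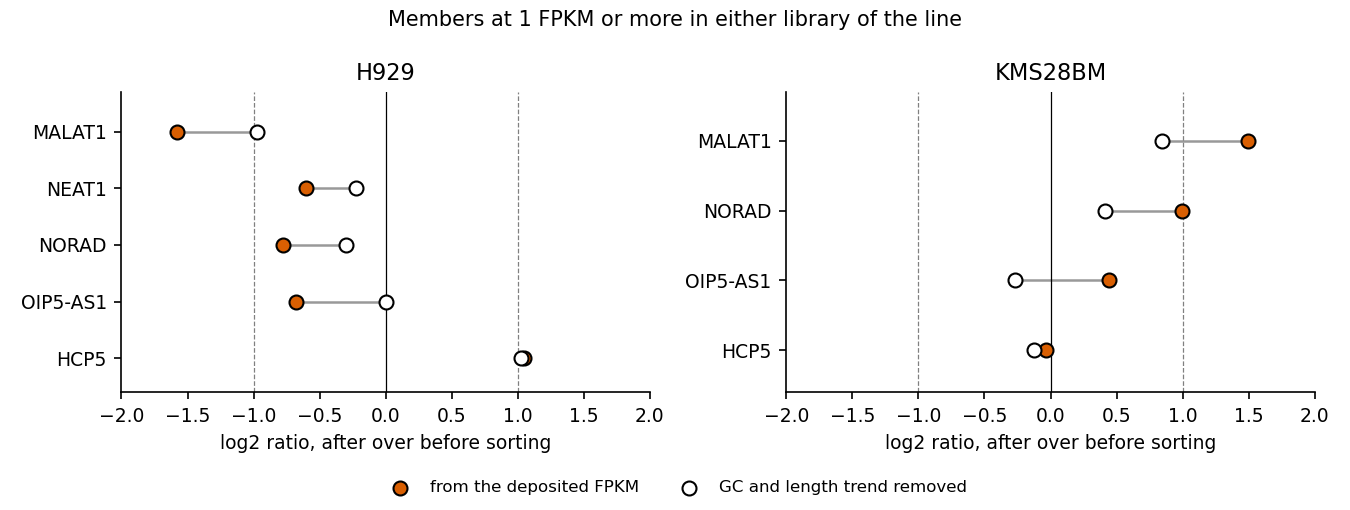
Log2 ratio, after over before sorting, of the members measured in H929 (left) and KMS28BM (right), with filled circles for the ratio from the deposited FPKM and open circles for the ratio with the GC and length trend removed. In both lines MALAT1 moves toward 0 and stays the furthest from it among MALAT1, NEAT1, NORAD and OIP5-AS1, and HCP5 moves little.

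For a change common to H929 and KMS28BM, limma was run with line and sorting label as terms. None of the 5 members measured in any line was called, and each had an adjusted p of 1. The background was 0.114% of 12294 genes called. MALAT1 had a shared log2 change of -0.04 ± 0.48 (SE, 4 libraries), since its ratios in the lines cancel. The estimates were 0.11 ± 0.42 for NORAD, -0.12 ± 0.41 for OIP5-AS1 and -0.28 ± 0.40 for NEAT1. HCP5 had the largest estimate, 0.50 ± 0.41. No member had an unadjusted p under 0.05 in the limma fit. The fit rests on 1 residual degree of freedom per gene, so a missed call does not show that a level was the same.

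NEAT1 (ENSG00000245532, chromosome 11) is made as a short polyadenylated RNA and as a long RNA, and the tables hold 1 gene-level value for both. It stood at 0.415 FPKM after and 1.15 FPKM before sorting in H929, about 215 and 649 fragments on the long transcript. In KMS28BM it stood at 0.306 FPKM after and 0.275 FPKM before sorting, under the limit for a ratio. The deposited level of NEAT1 was lower after sorting in H929, by 2.77-fold without a pseudocount (interval 2.37 to 3.25, counting error only) and with a ratio of -0.60, which misses 2-fold. In the authors' deposited table NEAT1 has a p of 0.0486 and a q of 0.648 in H929. With the trend removed its ratio was -0.23, and with a trend fitted on lncRNA genes it was 0.50, so the direction depends on that choice.

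Proteins of the compartments of MALAT1 and NEAT1 were described from lists. Of 36 measured gene IDs of paraspeckle proteins, 0 were 2-fold higher and 3 lower in H929, and 4 were higher and 0 lower in KMS28BM. Over all measured genes, the background for this and the later lists, 1.59% were 2-fold higher and 5.17% lower in H929. In KMS28BM 4.13% were higher and 1.12% lower. With the trend removed, 1 paraspeckle ID was higher and 1 lower in H929, and 0 were higher and 1 lower in KMS28BM. The medians of the list were -0.06 in H929 and 0.39 in KMS28BM, and 0.13 and 0.10 with the trend removed. The core paraspeckle proteins SFPQ and NONO bind NEAT1 directly. SFPQ stood at 24.8 FPKM after and 28.4 FPKM before sorting in H929, and at 50.0 FPKM after and 35.8 FPKM before sorting in KMS28BM. NONO stood at 49.5 FPKM after and 52.1 FPKM before sorting in H929, and at 50.0 FPKM after and 35.2 FPKM before sorting in KMS28BM. Both thus differed little in H929 and were higher after sorting in KMS28BM, short of 2-fold. RBM12, an RNA-binding protein found in paraspeckles, had ratios of -1.10 in H929 and -0.61 in KMS28BM, and TARDBP, an RNA-binding protein linked to motor neuron disease, 0.74 and 0.54. MATR3, a nuclear matrix protein, has 2 gene IDs in the tables that share its reads, so its ratios are uncertain.

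Of 29 measured nuclear speckle genes, 0 were 2-fold higher and 1 lower in H929, the splicing factor SRSF5, at 10.5 FPKM after and 23.7 FPKM before sorting. Of 28 in KMS28BM, 5 were higher and 0 lower, beside 4.13% higher and 1.12% lower over all measured genes. With the trend removed, 1 speckle gene was higher and 0 lower in H929, and 0 passed 2-fold in KMS28BM. The medians of the list were -0.32 in H929 and 0.53 in KMS28BM, and 0.02 and 0.09 with the trend removed. With a filter at 5 FPKM they were 0.06 and 0.51, so the sign in H929 turned. SON, which holds the core of the speckle together, followed the same pattern as MALAT1 at a smaller size, with 10.2 FPKM after and 17.9 FPKM before sorting in H929 and 13.5 FPKM after and 5.41 FPKM before sorting in KMS28BM. SRSF1, a splicing factor that binds MALAT1, stood at 8.90 FPKM after and 6.76 FPKM before sorting in H929, and at 11.1 FPKM after and 6.51 FPKM before sorting in KMS28BM.

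The enzymes that make the MALAT1 end made up another list, of RNase P subunits, RNase Z and factors that act on the tail. None of 15 genes was 2-fold higher in H929 and 1 was lower, RPP38, an RNase P subunit, at 6.04 FPKM after and 13.3 FPKM before sorting. In KMS28BM 0 of 13 passed 2-fold either way. The medians were 0.02 in H929 and 0.02 in KMS28BM, and 0.23 and -0.10 with the trend removed. In KMS28BM the median was also below 0 with a filter at 5 FPKM, at -0.20, and with trimmed-mean scaling, at -0.20. ELAC2, the RNase Z that cuts the other end of mascRNA, stood at 16.2 FPKM after and 8.91 FPKM before sorting in H929, and at 17.8 FPKM after and 19.01 FPKM before sorting in KMS28BM.

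Genes next to MALAT1 and NEAT1 on chromosome 11 had medians of the sign opposite to the MALAT1 ratio in each line. Of 16 measured in H929, 10 had a ratio above 0, with a median of 0.17, and of 14 in KMS28BM 1 did, with a median of -0.23, and 0 passed 2-fold in either line. Over all measured genes, 41.7% had a ratio above 0 in H929 and 59.4% in KMS28BM. FAM89B, a GC-rich neighbour at 66.9% GC, stood at 49.9 FPKM after and 53.7 FPKM before sorting in H929, and at 31.8 FPKM after and 54.4 FPKM before sorting in KMS28BM. With the trend removed the medians of the neighbours were 0.11 and -0.08.

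**Figure D5:**
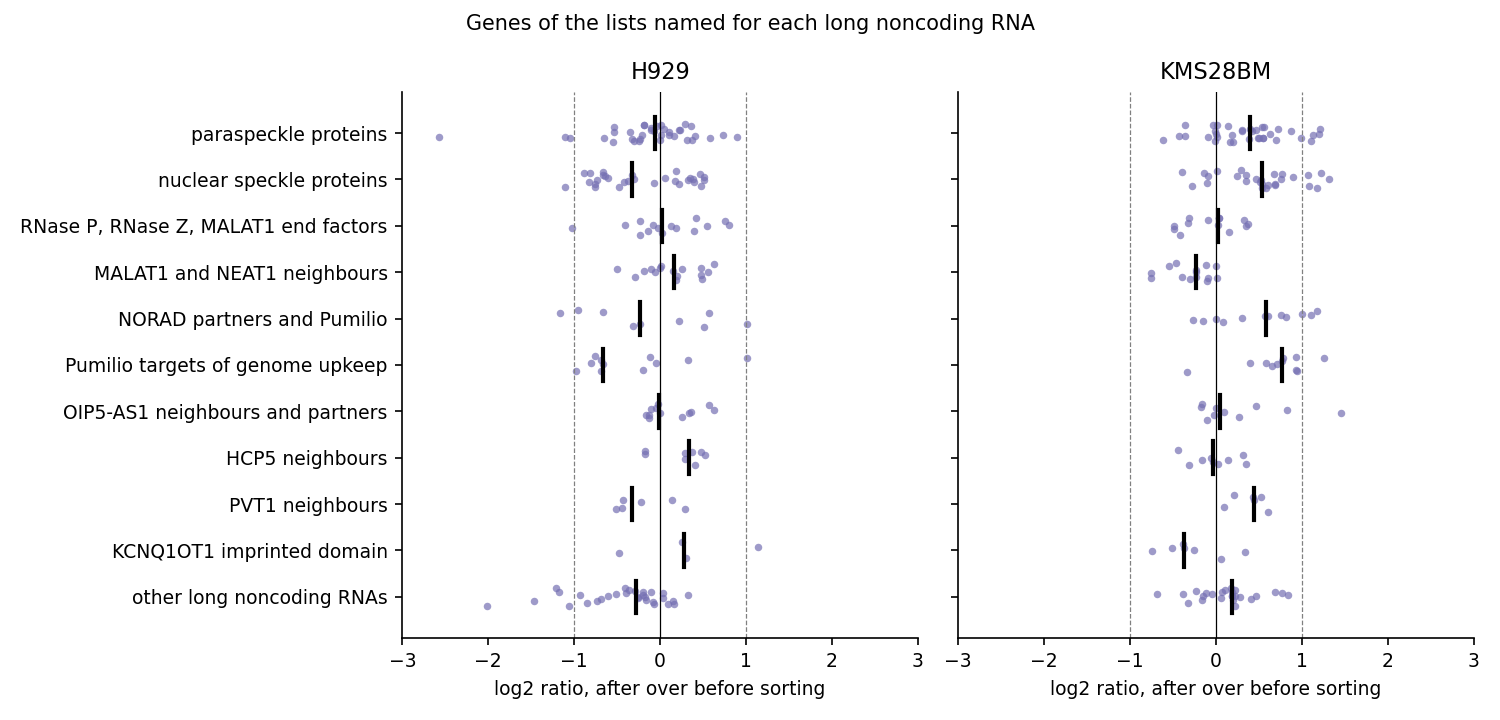
Log2 ratio, after over before sorting, of each measured gene of 11 lists in H929 (left) and KMS28BM (right), 1 point per gene, with a black bar at the median of the list and dashed lines at 2-fold. The medians of the speckle and Pumilio lists lie left of 0 in H929 and right of it in KMS28BM, and those of the MALAT1 and NEAT1 neighbours lie the other way.

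NORAD (ENSG00000260032, chromosome 20) had the highest FPKM of the 8 RNAs in these poly(A)-selected libraries. In H929 it stood at 10.996 FPKM after and 19.5 FPKM before sorting, and in KMS28BM at 28.0 FPKM after and 13.6 FPKM before sorting. It was thus the lower in H929 and the higher in KMS28BM after sorting, as MALAT1 was, at a smaller size. The fold was 1.78-fold lower in H929 (interval 1.66 to 1.898, counting error only) and 2.06-fold higher in KMS28BM (1.94 to 2.19), and the ratios were -0.78 and 0.99, short of 2-fold on the scale with a pseudocount. Its rank among lncRNA genes was 39 after and 18 before sorting in H929, and 13 after and 17 before sorting in KMS28BM. The authors' deposited table gives NORAD a p of 0.304 in H929 and 0.194 in KMS28BM.

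NORAD carries repeated copies of the Pumilio motif, TGTANATA, where N is any base. The transcript holds 15, read on its own strand. Of 5857 genes whose longest transcript is 4000 to 7000 bases long, 41.97% hold at least 1 and the median is 0, and 3 genes hold 15 or more, NORAD, HCG11 and OVCH1-AS1. In 3 places a pair of motifs starts within 10 bases of each other. These pairs, at bases 1430 to 1470, 2627 to 2667 and 3263 to 3303, show the repeat best, with the motifs in capitals.
NORAD 1430: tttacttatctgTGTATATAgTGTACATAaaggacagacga
NORAD 2627: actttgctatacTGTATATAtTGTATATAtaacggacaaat
NORAD 3263: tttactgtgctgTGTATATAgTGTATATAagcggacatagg
The copies of NORAD elsewhere in the genome share 35.3% of its 50-base words, 22.7% with OVCH1-AS1 and 11.6% with LINC02211, so some of its reads may be split. Both copies were listed low, OVCH1-AS1 at between 0.009 and 0.082 FPKM and LINC02211 at between 0.028 and 0.228 FPKM over the 4 libraries. HCG11 was listed at 1.67 FPKM after and 3.30 FPKM before sorting in H929, and at 0.842 FPKM after and 0.647 FPKM before sorting in KMS28BM.

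The Pumilio protein PUM2 stood at 5.28 FPKM after and 11.2 FPKM before sorting in H929, and at 5.43 FPKM after and 2.20 FPKM before sorting in KMS28BM. Its ratios of -0.96 in H929 and 1.007 in KMS28BM thus had the same sign as those of NORAD in each line. Over the list of NORAD partners and Pumilio proteins, 1 of 9 measured genes was 2-fold higher and 1 lower in H929, and 3 of 12 were higher and 0 lower in KMS28BM. Over all measured genes 4.13% were higher in KMS28BM, and with the trend removed 0 genes of the list passed 2-fold in either line. The medians of the list were -0.23 and 0.59, and 0.29 and 0.25 with the trend removed, so the sign in H929 turned. CDC5L, a splicing factor, was the lower one in H929, at 1.80 FPKM after and 5.29 FPKM before sorting, and ALYREF, an mRNA export factor, the higher one, at 71.1 FPKM after and 34.9 FPKM before sorting.

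Genes of chromosome upkeep that are known Pumilio targets were described beside them. Of 11 measured in H929, 1 was 2-fold higher and 0 lower, and the median was -0.66. Of 11 measured in KMS28BM, 1 was higher and 0 lower, and the median was 0.77. With the trend removed the medians were -0.04 and 0.14. With a filter at 5 FPKM they were -0.08 in H929 and 0.78 in KMS28BM. BARD1, a partner of the repair protein BRCA1, stood at 0.378 FPKM after and 1.72 FPKM before sorting in H929, and MCM4, a subunit of the replication helicase, at 26.5 FPKM after and 21.0 FPKM before sorting in H929 and 25.2 FPKM after and 18.9 FPKM before sorting in KMS28BM. The medians of these targets thus had the signs of NORAD in both lines and lay close to 0 with the trend removed.

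The genes with ratios nearest to those of NORAD, by distance over the 2 lines among 3480 coding and lncRNA genes at 5 FPKM or more in all 4 libraries, were STEAP1, BTBD1 and EIF4G2. STEAP1, a membrane protein, stood at 9.52 FPKM after and 16.9 FPKM before sorting in H929, and at 11.02 FPKM after and 5.05 FPKM before sorting in KMS28BM. The 3 have 42.5%, 42.2% and 40.5% GC, close to the 41.6% of NORAD. At 1 FPKM in all libraries, over 7256 genes, the nearest to MALAT1 were KIF5B, SHOC2 and PJA2, with 39.1%, 37.2% and 38.1% GC. KIF5B, a motor protein of the kinesin family, stood at 1.505 FPKM after and 6.002 FPKM before sorting in H929, and at 5.20 FPKM after and 1.16 FPKM before sorting in KMS28BM. The nearest to OIP5-AS1 were TNFRSF10D, ENTPD4 and ZBED3, with 47.1%, 45.7% and 47.2% GC, above its own 38.4%. For NORAD, TMX1 took the place of EIF4G2 at 1 FPKM, with 34.9% GC. Nearness in ratios thus did not always go with nearness in GC content.

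OIP5-AS1 (ENSG00000247556, chromosome 15), known in fish as cyrano, binds miR-7 through 1 site with extended pairing, which in mice leads to the loss of that microRNA. The site at bases 2865 to 2894 of the transcript is shown with the microRNA, whose seed, bases 2 to 8, is in capitals. In the site, capitals mark the match to the seed and a run of 14 bases that pairs with the 3′ part of the microRNA.
OIP5-AS1 site: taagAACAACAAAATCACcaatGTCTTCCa
hsa-miR-7-5p: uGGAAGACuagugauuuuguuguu
The transcript holds 3 matches to the seed in all. The microRNA itself is not measured in libraries of this kind. OIP5-AS1 stood at 3.68 FPKM after and 6.50 FPKM before sorting in H929, and at 4.89 FPKM after and 3.33 FPKM before sorting in KMS28BM. The level was 1.77-fold lower after sorting in H929 (interval 1.62 to 1.93, counting error only) and 1.47-fold higher in KMS28BM (1.33 to 1.63). The ratios were -0.68 and 0.44, and with the trend removed both were at or below 0.

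OIP5, the protein-coding gene on the opposite strand, overlaps 470 exonic bases of OIP5-AS1, or 3.71% of them. Whether the counting used strand is not stated, so reads there cannot be told apart. OIP5 stood at 7.68 FPKM after and 7.99 FPKM before sorting in H929, and at 12.9 FPKM after and 9.12 FPKM before sorting in KMS28BM. Its ratios of -0.05 and 0.46 thus lay close to that of OIP5-AS1 in KMS28BM and not in H929. With the trend removed OIP5 had -0.07 in H929 and 0.34 in KMS28BM. OIP5-AS1 then had -0.27 in KMS28BM, so the likeness there was gone. Over the list of neighbours and partners, 0 of 12 measured genes passed 2-fold in H929, and 1 of 10 was higher in KMS28BM, NUSAP1, a spindle protein, at 27.4 FPKM after and 9.37 FPKM before sorting. The medians were -0.01 and 0.05.

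HCP5 (ENSG00000206337, chromosome 6) lies in the class I region of the major histocompatibility complex between MICA and MICB, whose proteins are stress ligands for natural killer cells. In H929 it stood at 1.31 FPKM after and 0.121 FPKM before sorting, about 79 and 8 fragments on its longest transcript. In KMS28BM it stood at 2.82 FPKM after and 2.91 FPKM before sorting. The H929 library labelled before sorting is thus the low one, and the other 3 lie between 1.31 and 2.91 FPKM. Without a pseudocount HCP5 was 10.8-fold higher after sorting in H929 (interval 5.20 to 25.8, counting error only) and differed by 1.03-fold in KMS28BM (0.831 to 1.29, before over after). The ratios were 1.04 and -0.03. In the authors' deposited table HCP5 has a p of 1.09e-06 and a q of 0.00219 in H929, the 1 member with a q under 0.05 in either line.

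The genes around HCP5 did not share its size of difference. None of 8 measured neighbours in H929 and none of 9 in KMS28BM passed 2-fold, and the medians were 0.33 and -0.03. MICA, which shares 62 exonic bases with HCP5 on the same strand, stood at 5.21 FPKM after and 4.10 FPKM before sorting in H929, and at 5.26 FPKM after and 5.40 FPKM before sorting in KMS28BM. MICB stood at 46.2 FPKM after and 35.4 FPKM before sorting in H929, and at 24.8 FPKM after and 22.4 FPKM before sorting in KMS28BM. HLA-B, an antigen-presenting class I molecule, stood at 512 FPKM after and 388 FPKM before sorting in H929, and at 1047 FPKM after and 1086 FPKM before sorting in KMS28BM. The ratios in H929 were 0.29 for MICA, 0.37 for MICB and 0.40 for HLA-B, and 0.11, 0.35 and 0.09 with the trend removed, when the median of the neighbours was 0.10. Of the 8 neighbours 6 had a ratio above 0 in H929, and NFKBIL1 and ATP6V1G2, at -0.18 each, did not.

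KCNQ1OT1 (ENSG00000269821, chromosome 11) is transcribed from the paternal copy against the potassium channel gene KCNQ1 and keeps nearby genes such as CDKN1C silent on that copy. It was listed at 0.0049 FPKM after and 0.016 FPKM before sorting in H929, and at 0.0192 FPKM after and 0.0135 FPKM before sorting in KMS28BM. On its 91667-base transcript these levels still stand for about 10 and 36 fragments in H929 and 41 and 26 in KMS28BM, and no ratio was taken below 1 FPKM. KCNQ1 stood at 0.069 FPKM after and 0.041 FPKM before sorting in H929, and at 14.1 FPKM after and 24.4 FPKM before sorting in KMS28BM. Within KMS28BM the ratio of the host gene was -0.75. The pair overlaps by 121 exonic bases on opposite strands. CDKN1C, an inhibitor of the cell cycle, stood at 0.231 FPKM after and 0.189 FPKM before sorting in H929, and at 0.589 FPKM after and 1.26 FPKM before sorting in KMS28BM. Of the genes of this domain, 1 of 4 measured in H929 was 2-fold higher, TSSC4, and 0 of 7 passed 2-fold in KMS28BM.

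MEG3 (ENSG00000214548, chromosome 14), a maternally expressed RNA whose loss is described in many tumours, was listed at the floor of 0.0001 FPKM in each of the 4 libraries. On its 12990-base transcript that floor stands for well under 1 fragment. Of 10 genes of its domain in the tables, 2 were measured, WARS1, a tRNA synthetase, and WDR25, neither of which passed 2-fold. WARS1 stood at 32.1 FPKM after and 42.5 FPKM before sorting in H929, and at 98.4 FPKM after and 86.1 FPKM before sorting in KMS28BM.

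PVT1 (ENSG00000249859, chromosome 8) lies next to MYC and is a recurrent site of rearrangement in myeloma. It stood at 0.238 FPKM after and 0.316 FPKM before sorting in H929, and at 0.852 FPKM after and 0.881 FPKM before sorting in KMS28BM, below the limit for a ratio in both lines. Per fragment, the fold lay between 0.284 and 1.91 in H929 and between 0.577 and 1.61 in KMS28BM (95% exact binomial intervals of after over before, counting error only). MYC stood at 5.68 FPKM after and 4.47 FPKM before sorting in H929, and at 4.19 FPKM after and 3.86 FPKM before sorting in KMS28BM. None of 6 measured neighbours passed 2-fold in either line, and the medians were -0.32 and 0.44, and 0.05 and 0.15 with the trend removed.

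Beside the 8 members, 30 of 63 other lncRNAs on a list of widely studied ones were measured in H929 and 25 in KMS28BM. In H929 0 were 2-fold higher and 5 lower, with a median of -0.28, and in KMS28BM 0 passed 2-fold, with a median of 0.19. Among measured genes in H929, 5.17% of all genes and 7.01% of lncRNA genes were 2-fold lower. TUG1, a long RNA that binds Polycomb proteins, stood at 0.725 FPKM after and 5.97 FPKM before sorting in H929, and at 3.41 FPKM after and 1.59 FPKM before sorting in KMS28BM. Its ratios of -2.01 and 0.77 have the signs of MALAT1, and with the trend removed they were -1.54 and 0.22. GAS5, a host of small nucleolar RNAs, stood at 46.2 FPKM after and 53.2 FPKM before sorting in H929, and at 33.6 FPKM after and 37.5 FPKM before sorting in KMS28BM. FGD5-AS1, an antisense RNA, was lower after sorting in both lines, with ratios of -0.85 and -0.32. With the trend removed the medians of this list were -0.32 in H929 and -0.08 in KMS28BM, so the sign in KMS28BM turned. In H929 3 genes of the list were then 2-fold lower and 0 higher, beside 8.15% lower and 1.90% higher of lncRNA genes.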

How the data were processed

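The deposited tables, 1 per line, hold for each gene the FPKM of both libraries, their ratio as a fold, its log2, and the authors' p-values and q-values, per the file headers. The submitters' processing notes name Bowtie 0.12.2, HISAT2 2.0 and StringTie 1.3.0 with no role or order. They name the mouse build mm8 beside human gene IDs, so no genome coordinates are given. Poly(A) RNA was selected, per the labels' protocols. Of the deposited FPKM values, those at 0.0001 are a floor.

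The 8 members, the 20 gene lists and the tests were chosen with earlier results of these data known. Members and the 2 measured genes at each end of a list by mean ratio were named by rule, as were the genes most like a member and the 5 lncRNA genes at each end in each line. Some genes the rule names are not reported here. SON, SFPQ, NONO, OIP5, MICA, HLA-B, HCG11, GAS5, JCHAIN and AL662884 were picked for the text with values in view, and so was likeness at 1 FPKM.

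Log2 ratios used a pseudocount of 1 FPKM and genes that reached 1 FPKM in the line. Replicate-free ratios carry no p-value. Joint normalization of the tables is not stated, so lines were compared through ratios. A shared change was fitted on log2(FPKM + 1) in R 4.3.3 by limma 3.58.1, with line and sorting as terms, a trended moderation and Benjamini-Hochberg adjustment. GC content, length and sequences came from GENCODE release 29 transcripts (GRCh38) by gene ID, 58394 of 60612 IDs matching, and miR-7 from RefSeq (GRCh38.p14). Depth was read from where FPKM times length piles up at 1 fragment, and fragments per gene assume its longest transcript. SciPy 1.17.1, pandas 2.3.3 and numpy 2.4.6 under Python 3.11.15 served for the rest.

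Alternatives were pseudocounts of 0.1 and 5, no filter or one at 5 FPKM, 3 rescalings, the ratio as deposited, a 1.5-fold threshold, and the trend in GC and length fitted on coding or lncRNA genes.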

Additional observations from a re-analysis of the deposited data

Results flagged for a closer look

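Of the 4 members measured in both lines, MALAT1, NORAD and OIP5-AS1 had ratios below 0 in H929 and above 0 in KMS28BM. The same held for 41.6% of 9261 genes. HCP5 was higher after sorting in H929 and close to 0 in KMS28BM, at -0.03. These differences between the lines were not tested, since each line and label has 1 library. The ratio in H929 minus the ratio in KMS28BM was -3.07 for MALAT1, -1.77 for NORAD and -1.13 for OIP5-AS1. For HCP5 it was 1.08, of which nearly all lies in H929, where the level labelled before sorting stands for about 8 fragments. GC content moved with the ratios in opposite directions in the lines, and with the trend removed the MALAT1 ratios were -0.97 and 0.84, and those of OIP5-AS1 -0.00014 and -0.27.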

How the results depend on the processing

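In H929, 2 members passed 2-fold. The count was 3 with a pseudocount of 0.1, 3 from the ratio as deposited, 0 with a pseudocount of 5, 1 with a filter at 5 FPKM, 1 when centred on the median, 1 when rescaled without mitochondrial and immunoglobulin genes, 1 with the GC and length trend fitted on coding genes, 1 with it fitted on lncRNA genes and 5 at 1.5-fold. In KMS28BM, 1 member passed. The count was 2 with a pseudocount of 0.1, 0 with one of 5, 2 when centred, 2 without mitochondrial and immunoglobulin genes, 0 with the trend fitted on coding genes, 0 with it fitted on lncRNA genes, 2 at 1.5-fold and 2 from the ratio as deposited. With the trend removed, H929 had 1 member past 2-fold, and 2 with a trend in GC content alone. When centred and when rescaled without mitochondrial and immunoglobulin genes, HCP5 in H929 fell just short, at 0.97 and 0.99. NORAD in KMS28BM, at 0.99 as reported, passed in the same settings, at 1.03 and 1.07. Shares of all genes past 2-fold are given above for the reported setting and for the trend fitted on coding genes. The counts in the other settings have no such background beside them. Filters and thresholds change these counts by construction, and for the rest the cause was not tested. MALAT1 kept its direction in all 11 settings run, the reported one included, between -2.04 and -0.81 in H929 and between 0.73 and 2.07 in KMS28BM. NORAD did too, between -0.87 and -0.19 and between 0.41 and 1.07, as did HCP5 in H929, between 0.30 and 3.44 over 10 settings. Pseudocounts, filters and the ratio as deposited cannot turn a sign. Only the rescalings and the trend fits could have done so. In KMS28BM HCP5 ran from -0.20 to 0.02 and so took both signs. NEAT1 in H929 ran from -1.47 to 0.50 and OIP5-AS1 from -0.82 to 0.16 in H929 and from -0.27 to 0.55 in KMS28BM, so their signs turned with the trend. Trimmed-mean scaling moved the median of all genes to 0.10 in H929 and -0.06 in KMS28BM, beside -0.11 and 0.12. The limma count of members was 0 in every setting run. Of the 3 genes nearest to NORAD, 2 were the same at 1 FPKM. The labels give no replicate numbers on which to block. The limma fit already has the line as a term, which sets the library labelled after sorting against the one labelled before sorting within each line. The estimated depth limits HCP5 in H929, KCNQ1OT1, MEG3 and PVT1, whose levels rest on few fragments.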
